A study of Danio rerio with 6 samples.

Results

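Many zebrafish genes have no descriptive name and are listed under the clone or cDNA they were found on, with prefixes such as si:, zgc: and wu:. Among the 31743 genes of the deposited table, 4782 are listed this way. The genes described here are the 127 of them whose mean level was at least 3 TPM in foxl2l+/+ germ cells and, in foxl2l-/- germ cells, at most 25% of that level. Clone-named genes on chromosome 4 from 30 Mb were left out, 5 of which met both limits. TPM is a relative transcript level, scaled by the authors for gene length and for the library total. The members were thus selected on the TPM of both genotypes, and the difference between genotypes is given for them as a description with no test.

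The libraries came from zebrafish of strain TL that carried the foxl2l:egfp reporter, dissociated from trunks with the gonad at 21 days post fertilization and sorted for EGFP, about 300 germ cells per genotype. Both genotypes carry the reporter, so the controls are foxl2l:egfp;foxl2l+/+ and the mutants foxl2l:egfp;foxl2l-/-, with 3 libraries each. EGFP from the reporter selected the cells, and the labels state neither the mutant allele nor whether libraries came from separate animals, so spread between libraries may be partly technical. In this bulk RNA, fewer cells of a type and less RNA per cell cannot be told apart.

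Foxl2l is a forkhead transcription factor of germ cells, studied in this series for its role when female germ cells enter meiosis. Growing oocytes build an egg coat of zona pellucida proteins and store RNA and protein for the embryo, and some of the genes involved lie in tandem arrays of similar copies in zebrafish. A clone name is a placeholder given from a sequenced genomic clone or cDNA (si: from the Sanger Institute, zgc: from the Zebrafish Gene Collection, wu: from Washington University) and says nothing of what the gene does.

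Total counts ran from 25176401 to 39189535 per library. The foxl2l gene, listed as zgc:194189 on chromosome 23, was read in both genotypes, at 959, 1095 and 1392 TPM in foxl2l+/+ replicates 1 to 3 and 2381, 2076 and 1908 TPM in foxl2l-/- replicates 1 to 3, so its transcript does not check the labels. It was higher in every mutant library, with a log2 fold change of 0.64 ± 0.20 (SE, edgeR adjusted p = 0.026), a call lost without any of 4 of the libraries (adjusted p 0.0504 to 0.105). Of the germ cell markers, 11 of 11 were found, and their summed level was 4318 to 5000.1 TPM in foxl2l+/+ and 4388 to 6681 TPM in foxl2l-/- libraries. Of these 11, 2 were called lower and 1 higher in foxl2l-/- cells. Over all 23576 genes tested, 3733 were called lower and 3710 higher. The 15 oocyte differentiation markers found, of 16, summed to 2532 to 3642 TPM in foxl2l+/+ and 244 to 254 TPM in foxl2l-/- libraries, and moved with the members. All 15 were called lower, from a list chosen with earlier results of these data known. That list included the meiosis genes dmc1, sycp1 and meiob, so it was not of oocyte genes alone. Somatic gonad markers (17 of 17 found, none at 0 in every library) summed to 39.8 to 42.3 TPM in foxl2l+/+ and 61.5 to 72.8 TPM in foxl2l-/- libraries, the other way round, although of 14 tested 2 were lower and 2 higher. The part of any of these lists in the members' levels was not tested.

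The 1664 clone-named genes with at least 3 TPM in foxl2l+/+ cells include the 127 members, a share of 7.63%. Among the 11585 other genes past the same level outside that arm of chromosome 4, 402 (3.47%) met the same ratio. No test was made of that difference, which belongs to these limits. Of all 3680 clone-named genes that edgeR tested, with chromosome 4 kept, 13.8% were called lower in foxl2l-/- cells (adjusted p below 0.05). A larger share of them, 16.2%, was called higher. Over all 23576 genes tested, 15.8% were called lower, and the calls were nearly even, at 3733 lower and 3710 higher. By prefix, 94 members are si: genes, 32 are zgc: genes and 1 is a wu: gene. The reference name table gives 22 of them a descriptive symbol, while the rest have no name beyond a clone, cDNA or locus number.

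Together the members took 1.05 ± 0.217% (SD, n = 3) of all TPM in foxl2l+/+ libraries, against 0.111 ± 0.012% (SD, n = 3) in foxl2l-/- libraries. Their summed level was 12982, 9782 and 8832 TPM in foxl2l+/+ replicates 1 to 3. It was 1193, 1155 and 968 TPM in foxl2l-/- replicates 1 to 3. The median member had 29.7 TPM in foxl2l+/+ and 1.98 TPM in foxl2l-/- cells, and the median of the 1664 clone-named genes was 13.0 TPM in foxl2l+/+ cells. At least 100 TPM was reached by 30 members in foxl2l+/+ cells, and at least 10 TPM by 93. In foxl2l-/- cells 24 members still had a mean of at least 10 TPM, and 42 were below 1 TPM. The median share of the foxl2l+/+ level left in foxl2l-/- cells was 8.89%.

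**Figure D1:**
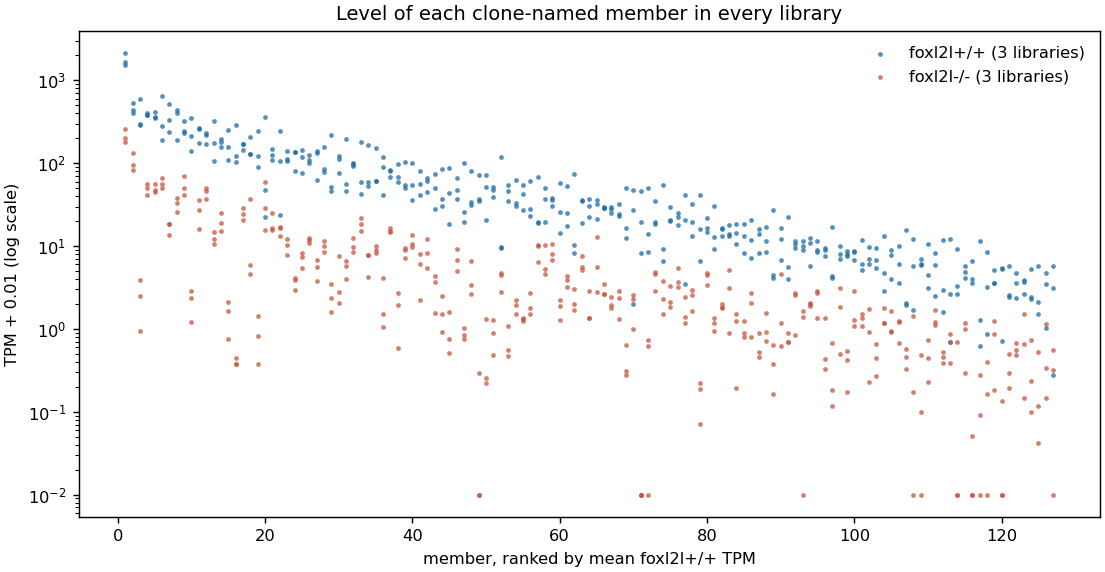
TPM plus 0.01 on a log scale of each of the 127 members in the 3 foxl2l+/+ libraries (blue) and the 3 foxl2l-/- libraries (red), ranked by mean foxl2l+/+ TPM. In 122 members all foxl2l-/- points lie below all foxl2l+/+ points, as the choice of members favours. Over all genes tested this held for 16.1%. Members at similar foxl2l+/+ levels differ widely in what is left in foxl2l-/- cells. Points at 0.01 are libraries with no read.

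In 122 members every foxl2l-/- library lay below every foxl2l+/+ library, an arrangement found in 16.1% of all 23576 genes tested. At a Benjamini-Hochberg adjusted threshold of 0.05, the quasi-likelihood test of edgeR called 15.8% of those genes lower in foxl2l-/- cells. It called all 126 members that passed the low-count filter, and nothing is read from these counts, since the same contrast chose the members. The median log2 fold change of those members was -3.73, against 0.05 over all genes and 0.13 over the 3680 clone-named genes tested. Fold changes here and below are log2 of foxl2l-/- over foxl2l+/+ counts from that fit. The standard error (SE) given with a fold change is an approximation from the test. It is the absolute log2 fold change divided by the square root of the test's F value.

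The limits cut through a continuous range. Just inside the level limit lay 3.03 TPM for si:ch73-380l3.3, 3.06 for zgc:171750 and 3.14 for zgc:171977. The nearest clone-named genes outside, si:ch211-146l10.7, si:ch211-263k4.2 and zgc:172253, had 2.96, 2.96 and 2.92 TPM. At the ratio limit, zgc:173443, si:dkey-104n9.1 and zgc:158463 kept 25.0%, 24.4% and 24.2% of the foxl2l+/+ level. Outside it zgc:110182, si:dkeyp-46h3.3 and si:ch211-210c8.7 kept 25.2%, 25.4% and 25.4%.

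The most abundant member was si:dkey-40g16.5 (chromosome 15, 21672281 to 21673630, forward strand), which alone made up 16.9% of the members' foxl2l+/+ level and was the gene with rank 46 of the whole table by foxl2l+/+ TPM. It had 1677, 2123 and 1531 TPM in foxl2l+/+ replicates 1 to 3 and 258, 204 and 181 TPM in foxl2l-/- replicates 1 to 3. The groups lay far apart, with a log2 fold change of -3.30 ± 0.24 (SE), yet the foxl2l-/- level of this gene exceeded the foxl2l+/+ level of most other members. It overlaps bco2b on the other strand, a gene at 12.2 TPM in foxl2l+/+ and 2.65 TPM in foxl2l-/- cells, and the library chemistry does not record strand.

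The 12 most abundant members held 51.4% of the summed foxl2l+/+ level. Next in order, si:ch211-173m16.2 on chromosome 9 had 407, 539.6 and 445 TPM in foxl2l+/+ and 132, 95.9 and 82.8 TPM in foxl2l-/- libraries. Then came si:dkeyp-98a7.3_2 on chromosome 22, with 590.4, 296 and 287 TPM against 3.87, 2.49 and 0.947 TPM. These neighbours in rank thus kept very different shares, 22.3% and 0.623%. For zgc:101744 on chromosome 2 the foxl2l+/+ libraries differed little, at 400.3, 377 and 380.5 TPM against 56.4, 50.8 and 41.9 TPM in foxl2l-/- libraries. Its log2 fold change was -3.20 ± 0.21 (SE). Where TPM values of a member are set against each other here, the foxl2l+/+ libraries come first and the foxl2l-/- libraries second, each as replicates 1 to 3.

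Also among the 12, si:dkeyp-46h3.2 on chromosome 19 had 516, 331 and 237 TPM in foxl2l+/+ and 18.7, 18.2 and 13.7 TPM in foxl2l-/- libraries. On chromosome 7, zgc:173552_3 had 233, 248 and 323 against 50.6, 69.9 and 41.8 TPM, and its name is a numbered copy, so reads may be shared between copies. On chromosome 14, si:ch211-232m8.3 had 175, 259 and 263 against 16.1, 36.3 and 27.2 TPM. That gene overlaps zgc:194246 on the same strand, which was itself at 988 and 427 TPM. On chromosome 19, si:ch211-199g17.9 had 219, 232 and 169.6 against 45.7, 50.4 and 36.8 TPM. In each of these members the lowest foxl2l+/+ library stood above the highest foxl2l-/- library, as the choice of members favours. This arrangement was found in 16.1% of all genes tested. The remaining members of the 12, spata45, zpax1 and a neighbouring pair of the si:dkey-241l7 group, are described below.

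The lowest fold changes among members with at least 10 TPM in foxl2l+/+ cells were reached mostly by genes of chromosome 22. Of the 10 lowest, 6 lie there. The lowest, si:ch211-226h8.8_2, had 299, 142 and 488 counts in foxl2l+/+ replicates 1 to 3 and no count in any foxl2l-/- library. Each genotype's summed counts and a floor of 3 counts put the pooled level at least 345-fold lower in foxl2l-/- cells. That bound covers counting error only and leaves out the spread of the gene among the foxl2l+/+ libraries. The numbered copy si:ch211-226h8.8_1 had 1140, 620 and 396 counts in foxl2l+/+ and 0, 0 and 4 in foxl2l-/- libraries. Both copies were thus at or near the detection limit in the mutant. How reads that match both copies were counted is unknown here, so the split between them is uncertain.

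The numbered copies si:dkeyp-98a7.3_1 and si:dkeyp-98a7.3_2 had log2 fold changes of -8.98 ± 0.49 and -7.51 ± 0.49 (SE). Similar values were seen for si:ch211-226h8.11 (-7.32 ± 0.80) and si:ch211-226h8.4 (-6.51 ± 0.70). Off chromosome 22, eef1a1l3 on chromosome 24, zpax1 and si:dkey-241l7.2 on chromosome 20, and si:dkey-152b24.6 on chromosome 16 completed the 10. Of these, si:dkey-152b24.6 had 50.8, 16.6 and 12.5 TPM in foxl2l+/+ and 0.297, 0.272 and 0.637 TPM in foxl2l-/- libraries.

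Members that now carry a descriptive symbol include 6 egg coat genes. Zpax1, listed as si:dkeyp-50f7.2 (chromosome 20, 43737022 to 43743700, reverse strand), belongs to the ZPAX group of zona pellucida proteins. Its level was 352, 212 and 139 TPM in foxl2l+/+ and 2.36, 1.19 and 2.85 TPM in foxl2l-/- libraries, a log2 fold change of -7.03 ± 0.42 (SE). The related zpax2 (si:ch211-223m11.2) and zpax4 (si:dkey-19b23.11) were lower in level, at 26.7 ± 5.11 and 23.4 ± 26.9 TPM in foxl2l+/+ cells (SD, n = 3). In foxl2l-/- cells they had 2.18 ± 0.805 and 2.53 ± 1.14 TPM. Without foxl2l+/+ replicate 1, zpax4 kept 32.1% of the foxl2l+/+ level and so missed the ratio limit.

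The ZP3-type genes zp3f.2 and zp3f.1 (si:ch211-14a17.6 and si:ch211-14a17.7) are direct neighbours on the reverse strand of chromosome 2. Zp3f.2 had 149, 109 and 126 TPM in foxl2l+/+ and 16.5, 15.6 and 25.0 TPM in foxl2l-/- libraries, and zp3f.1 had 133, 139 and 62.6 against 6.74, 3.83 and 5.51 TPM. Both pairs of groups were apart, and zp3f.1 kept the smaller share, 4.81% against 14.9%. As adjacent genes of 1 family they could share reads. Zp3f.2 also overlaps ap1g2 on the same strand, which was at 18.9 TPM in foxl2l+/+ and 26.7 TPM in foxl2l-/- cells. How far zp3f.2 and ap1g2 shared reads was not tested. A further ZP3-type member, zp3e (zgc:171779), had 10.7 ± 10.2 TPM in foxl2l+/+ and 0.756 ± 0.121 TPM in foxl2l-/- cells. The still unnamed zgc:173556 on chromosome 17 overlaps the ZP3 genes listed as zp3.2_1 and zp3.2_2 on the same strand, and had 53.8, 17.3 and 25.1 TPM in foxl2l+/+ and 4.32, 3.17 and 3.84 TPM in foxl2l-/- libraries. How far reads were shared with these genes was not tested.

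A second set of named members has known links to eggs and early embryos. Hwa (si:dkey-121h17.7), the maternal dorsal determinant huluwa of the zebrafish embryo, had 141, 107 and 112 TPM in foxl2l+/+ and 7.82, 10.2 and 12.2 TPM in foxl2l-/- libraries. Foxr1 (zgc:171734, chromosome 5, 58679071 to 58684455, forward strand), a forkhead factor supplied by the mother in zebrafish, had 97.5, 67.9 and 59.5 against 2.67, 0.586 and 1.93 TPM. Its log2 fold change was -5.67 ± 0.47 (SE), and its groups were far apart. Foxr1 overlaps CT955996.1 on the other strand, which was at 3.51 TPM in foxl2l+/+ and 0.328 TPM in foxl2l-/- cells. The gene 42sp43 (si:dkey-208k4.2) shares its name with a protein of the frog oocyte particle that stores 5S RNA, and had 181, 42.6 and 59.6 against 18.4, 15.2 and 21.9 TPM. Foxl2l+/+ replicate 1 stood well above the other foxl2l+/+ libraries for 42sp43, and without it the gene kept 36.3%.

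Eef1a1l3 (si:dkey-37o8.1, chromosome 24, 10898671 to 10901351, forward strand), named as a relative of the translation elongation factor that brings aminoacyl-tRNA to the ribosome, had 242, 122 and 90.7 TPM in foxl2l+/+ libraries. Only 1.43, 0.811 and 0.368 TPM were left in foxl2l-/- libraries, a log2 fold change of -7.63 ± 0.52 (SE). It overlaps asap1b on the other strand, which was at 4.25 TPM in foxl2l+/+ and 9.68 TPM in foxl2l-/- cells. Ovch1 (zgc:55888), of the ovochymase proteases first described in frog eggs, had 98.0, 100.2 and 93.7 against 8.53, 9.66 and 12.4 TPM, with foxl2l+/+ libraries close together.

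Genes whose names point to sperm or to other tissues were also among the members. Spata45 (si:ch211-147d7.5, chromosome 20, 37831352 to 37831939, reverse strand), named for spermatogenesis, was the fifth most abundant member, at 348, 414 and 366 TPM in foxl2l+/+ and 45.0, 55.7 and 47.2 TPM in foxl2l-/- libraries. Tmem81 (si:dkey-48j7.3), which in zebrafish sperm acts with Izumo1 and Spaca6 in gamete fusion, had 17.7, 25.4 and 22.5 against 3.22, 3.71 and 5.41 TPM. Tmem81 overlaps prex1 on the other strand, which was at 3.28 TPM in foxl2l+/+ and 2.79 TPM in foxl2l-/- cells. The gene given as MPP4 (si:ch211-222n4.6), named for a scaffold protein, had 136, 136 and 81.4 against 2.98, 3.89 and 4.06 TPM. Ccnp (si:ch211-132b12.8), named as a cyclin, had 32.4, 13.4 and 19.4 against 2.98, 1.62 and 2.58 TPM. In all 4 the foxl2l-/- libraries lay below the foxl2l+/+ libraries, as the choice of members favours. Over all genes tested this held for 16.1%.

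The other symbols are named here to account for all 22. They are lectin (si:dkey-216e24.3), zp3e, msmp2, the netrin receptor gene given as UNC5C, the sulfotransferase gene sult3st5, serpina10b, the pentraxin gene apcs and the acetylcholine receptor subunit gene chrna11. Apart from lectin at 57.7 ± 11.2 TPM, these had 3.4 to 15.3 TPM in foxl2l+/+ cells and 0.0416 to 2.03 TPM in foxl2l-/- cells. Apcs (si:ch211-270n8.1) rested on 176 counts over the foxl2l+/+ and 2 over the foxl2l-/- libraries. The ratio was 97.9, with a 95% exact interval of 26.7 to 815 that covers counting error only. Likewise si:dkey-126g1.9 on chromosome 23 had 295 counts against 1. The apcs interval pools foxl2l+/+ libraries that had 95, 14 and 67 counts. Its distance from equality was favoured by the choice of members and is no support.

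Members lay on all 25 chromosomes, but many lay side by side. Chains of members on a chromosome with at most 100 kb from the end of a member to the start of the next held 52 members (40.9%) in 11 clusters, 8 of them with 3 or more members. In the gene order of the table, 42 members had another member as direct neighbour. With a clone-named gene of at least 3 TPM in foxl2l+/+ cells within 100 kb, the nearest such gene was a member for 48 of 78 members (61.5%). The same held for 26 of 779 other clone-named genes (3.34%). Turned round, the limits gave 215 clone-named genes higher in foxl2l-/- cells, of which 47 (21.9%) lay in 19 clusters. The largest of these, of 5 genes, was also on chromosome 22, the chromosome with the most members. These shares are descriptions with no test.

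The clustered members contributed 38.0% of the members' summed foxl2l+/+ level. Leaving out the 42 members whose span overlaps another gene left 32 clustered members of 85, in 6 clusters. The clusters on chromosomes 2, 11, 20 and 21, described below, were then lost. Without foxl2l+/+ replicate 1 the same rule gave 114 genes, 43 of them in clusters. Chromosome 22 held 23 members (18.1%) against 5.65% of the clone-named genes past 3 TPM, followed by chromosomes 9 and 20 with 11 each and chromosome 24 with 8.

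**Figure D2:**
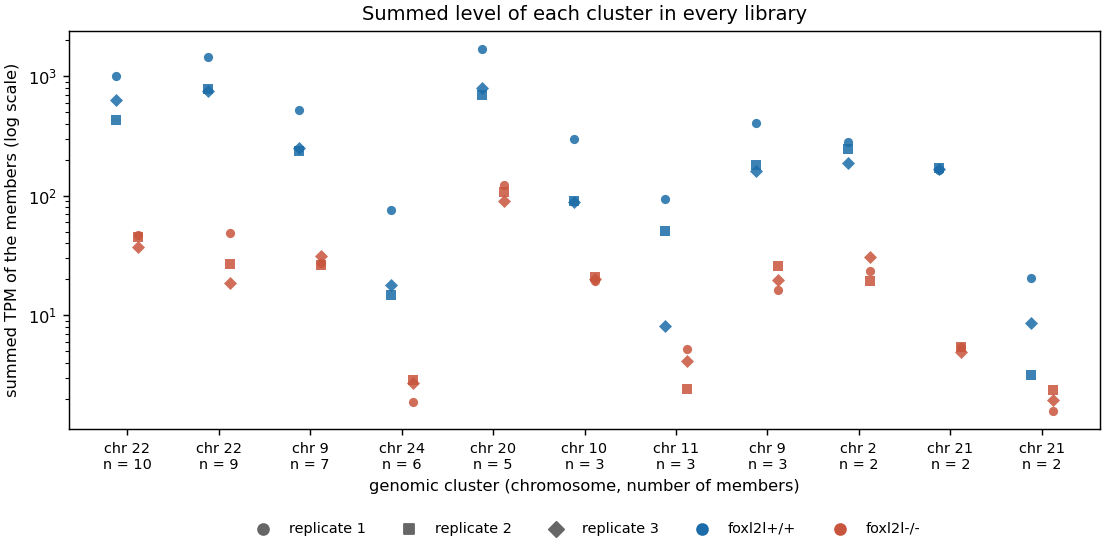
Summed TPM on a log scale of the members of each of the 11 clusters in every library, by genotype (blue foxl2l+/+, red foxl2l-/-) and replicate (marker shape). All foxl2l-/- sums lie below all foxl2l+/+ sums in every cluster, as the choice of members favours, and foxl2l+/+ replicate 1 is the highest of its genotype in 10 of the 11 clusters.

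The largest groups were 2 neighbouring clusters on chromosome 22, in a stretch from 25140904 to 25756668 in GRCz11 coordinates. This stretch of 616 kb held 31 genes of the table, 19 of them members, 17 on the forward and 2 on the reverse strand. The 19 members summed to 2464, 1206 and 1386 TPM in foxl2l+/+ replicates 1 to 3 and to 95.4, 72.1 and 56.2 TPM in foxl2l-/- replicates 1 to 3, which leaves 4.42%. Among all genes of the stretch, 22 reached 3 TPM in foxl2l+/+ cells, and 3 of these were not members. They were the tRNA synthetase gene aars2 at 10.2 and 8.91 TPM, si:ch211-226h8.6 at 3.91 and 1.64 TPM, and CR769772.4 at 3.16 and 1.87 TPM in foxl2l+/+ and foxl2l-/- cells. The other non-members stayed below 3 TPM in foxl2l+/+ cells. Members were also looked up by symbol or synonym in RefSeq's gene table for another zebrafish assembly, GRCz12tu. There 6 members of the first cluster and 6 of the second were found, all on chromosome 22. No match was found for si:ch211-226h8.4, si:ch211-226h8.8_1, si:ch211-226h8.8_2, si:ch211-226h8.11, si:dkeyp-98a7.3_1, si:dkeyp-98a7.3_2 and si:dkeyp-98a7.9. All but the last are the chromosome 22 genes given above among those of lowest fold change. Matched members of the other clusters lay on the chromosome given here, except for 1 of the 7 in the larger chromosome 9 cluster and for si:dkey-65l23.2_3. The symbol si:dkey-65l23.2 lies on chromosome 4 there, and a match by symbol cannot tell numbered copies apart.

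**Figure D3:**
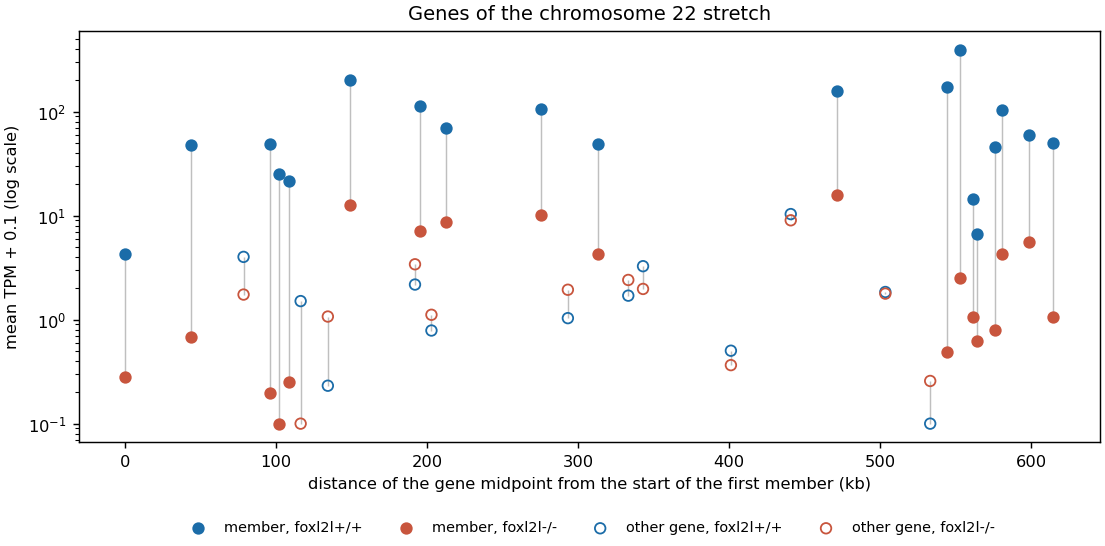
Mean TPM plus 0.1 on a log scale of the 31 genes of the chromosome 22 stretch, by distance of the gene midpoint from the start of the first member, in foxl2l+/+ (blue) and foxl2l-/- cells (red). Filled points are the 19 members and open points the other genes, such as aars2 near 440 kb, whose points lie close together.

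In the first of these clusters, of 10 members over 314 kb, the most abundant was zgc:171717 at 327, 107 and 174 TPM in foxl2l+/+ and 10.5, 14.7 and 12.1 TPM in foxl2l-/- libraries. The reference name table gives this gene as si:ch211-154a22.8 and uses the symbol zgc:171717 for BX950205.1 in the same stretch, which had 0.131 TPM in foxl2l+/+ and 0.97 TPM in foxl2l-/- cells. Next came si:ch211-226h8.14 (113 ± 33.7 and 7.02 ± 1.45 TPM, SD, n = 3), si:ch73-189n23.1 (107 ± 42.3 and 10.001 ± 1.52) and si:dkey-240e12.6 (69.8 ± 29.2 and 8.51 ± 1.17). These kept 6.21% to 12.2% of the foxl2l+/+ level, whereas the 4 genes si:ch211-226h8.4, si:ch211-226h8.8_1, si:ch211-226h8.8_2 and si:ch211-226h8.11, which lie next to each other apart from si:ch211-226h8.6, kept at most 1.21%. Highest in foxl2l+/+ replicate 3 rather than replicate 1 were si:ch211-226h8.8_2, at 19.5, 8.34 and 46.4 TPM, and si:ch211-226h8.4, at 51.4, 20.7 and 72.3 TPM. The cluster also held si:ch211-12h2.6, with 81.3, 33.6 and 31.3 against 6.51, 2.66 and 3.36 TPM, and si:dkeyp-20e4.8, with 8.54, 0.868 and 3.22 against 0.385, 0 and 0.155 TPM. The latter was the only member that the low-count filter removed.

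The second cluster, of 9 members over 145 kb, held si:dkeyp-98a7.3_2 and si:dkeyp-98a7.3_1, the latter at 287, 123 and 102 TPM in foxl2l+/+ and 0.363, 0.436 and 0.364 TPM in foxl2l-/- libraries. In si:ch211-12h2.8 the foxl2l-/- libraries differed among themselves, at 36.9, 5.88 and 4.57 TPM, below 208, 131 and 129 TPM in foxl2l+/+ libraries. The members si:dkeyp-98a7.8, si:dkeyp-98a7.9, si:ch211-250e5.16 and si:dkeyp-98a7.7 had 104, 59.2, 50.1 and 45.2 TPM in foxl2l+/+ cells and kept 4.0%, 9.24%, 1.9% and 1.53%. The span of si:ch211-250e5.9 (14.5 TPM) covers si:dkeyp-98a7.4 (6.51 TPM) and si:dkeyp-98a7.3_2 on the same strand, and how far their reads were shared was not tested. All 9 members of this cluster were highest in foxl2l+/+ replicate 1.

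The cluster with the largest sum lay on chromosome 20 from 54013212 to 54035844, where the si:dkey-241l7 group held 5 members and no other gene in 22.6 kb. Its sum was 1685, 703 and 805 TPM in foxl2l+/+ and 123, 109 and 90.1 TPM in foxl2l-/- libraries. The forward-strand genes si:dkey-241l7.4 and si:dkey-241l7.5 led it, the first with 643, 279 and 190.2 against 65.6, 56.0 and 49.9 TPM. The second had 443, 189.9 and 407 against 38.1, 33.0 and 25.5 TPM. Neither gene fell under 25 TPM in a mutant library, whereas si:dkey-241l7.2, with 249, 108 and 157 TPM in foxl2l+/+ libraries, was left with 2.13, 1.66 and 0.751 TPM, so the cluster spanned 0.882% to 15.4% kept. For si:dkey-241l7.3 the values were 248, 106 and 24.1 against 16.4, 17.0 and 13.1 TPM, with foxl2l+/+ replicate 3 not far above the mutant libraries. The reverse-strand gene si:dkey-241l7.6 (49.0 ± 45.7 TPM in foxl2l+/+ cells, SD, n = 3) overlaps the other 4 in span. In foxl2l-/- cells it was at 0.865 TPM, while si:dkey-241l7.4 inside its span was at 57.2 TPM.

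On chromosome 9 a cluster of 7 members ran from 8288268 to 8413219. It held zgc:171776 (220.4, 51.3 and 46.3 TPM in foxl2l+/+ and 2.37, 1.58 and 3.51 TPM in foxl2l-/- libraries) and zgc:153499 (82.5, 68.5 and 79.6 against 16.7, 14.996 and 15.1 TPM). The first had a wide spread among foxl2l+/+ libraries and kept 2.35%, the second a narrow one and kept 20.3%. The other 5 were si:dkey-90l23.1, si:dkey-90l23.2, zgc:113984, si:ch211-145c1.1 and si:ch1073-75o15.3, with 42.2, 41.7, 29.7, 24.2 and 17.5 TPM in foxl2l+/+ cells and 1.15 to 4.11 TPM in foxl2l-/- cells. The only non-member in the span, si:ch1073-75o15.4, had 76.6 and 33.4 TPM.

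Another chromosome 9 cluster, from 33216945 to 33238249, held the gene now called lectin and a pair of neighbours named from 1 clone. Lectin had 45.0, 66.3 and 61.9 TPM in foxl2l+/+ and 8.23, 12.2 and 5.5 TPM in foxl2l-/- libraries. The first neighbour had 166, 59.4 and 53.6 against 4.23, 7.79 and 7.84 TPM, and the second 196, 56.0 and 46.3 against 3.95, 5.68 and 6.58 TPM. Replicate 1 was the highest foxl2l+/+ library for both neighbours and the lowest for lectin.

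The chromosome 24 cluster, from 9976212 to 10032784, was the weakest of the larger groups, with 6 members at 3.06 to 11.8 TPM in foxl2l+/+ cells and 0.219 to 0.534 TPM in foxl2l-/- cells. Its sum was 75.6, 14.7 and 18.0 TPM in foxl2l+/+ replicates 1 to 3, so replicate 1 held most of the signal. Its leading gene zgc:173856 had 27.0, 4.1 and 4.45 TPM against 0.154, 0.633 and 0.371 TPM. Without foxl2l+/+ replicate 1, zgc:171977, zgc:171750, zgc:171474 and si:ch211-146l10.8 of this cluster fell under the 3 TPM limit, while zgc:173856 and zgc:152652 met both limits. The spans of zgc:171977 and zgc:152652 overlap on the same strand.

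On chromosome 10, from 8045364 to 8079737, zgc:136254, zgc:158494 and zgc:173443 formed a cluster on the reverse strand. The most abundant, zgc:136254, had 154, 60.3 and 61.9 TPM in foxl2l+/+ and 9.99, 8.87 and 8.24 TPM in foxl2l-/- libraries. With 75.1, 10.4 and 8.26 TPM, zgc:158494 was among the 4 members with the largest spread relative to the mean over foxl2l+/+ libraries, and had 3.0, 1.97 and 1.7 TPM in foxl2l-/- libraries. For zgc:173443, at 68.2, 19.8 and 18.9 against 6.37, 9.99 and 10.3 TPM, the share kept was 25.0%, and 46.0% without foxl2l+/+ replicate 1. This gene overlaps si:ch211-251f6.6 on the same strand, which was at 5.89 TPM in foxl2l+/+ and 1.82 TPM in foxl2l-/- cells.

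On chromosome 11 the numbered copies zgc:175135_1, zgc:175135_2 and zgc:175135_3 lay between 18037729 and 18132066 on the forward strand. In the sum of the copies, foxl2l+/+ replicate 3 stood apart from the other foxl2l+/+ libraries, with 8.08 TPM against 94.7 and 50.7, and foxl2l-/- libraries had 5.2, 2.43 and 4.16 TPM. For zgc:175135_1 the groups overlapped, since its 47.9, 27.5 and 2.02 TPM in foxl2l+/+ included a library below 2 of the foxl2l-/- values 2.58, 0.985 and 2.27. The first 2 copies overlap rpusd4 and qrich1, whose levels were 44.8 and 22.1 TPM in foxl2l+/+ and 32.8 and 26.2 TPM in foxl2l-/- cells.

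The remaining clusters were pairs. On chromosome 21, si:dkey-65l23.2_3 and the gene given as MPP4 lay within 116 kb of each other with 6 other genes in the span. Their sum hardly varied among foxl2l+/+ libraries, at 166, 172 and 167 TPM, although si:dkey-65l23.2_3 alone had 30.2, 36.6 and 85.3 TPM and was highest in replicate 3, where MPP4 was lowest. Elsewhere on chromosome 21, si:dkey-229d11.5 and si:ch211-263m18.4 overlap each other, with 5.59 and 5.14 TPM in foxl2l+/+ cells.

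The members varied more among the foxl2l+/+ libraries than other genes of at least 3 TPM did. The median ratio of SD to mean over the 3 foxl2l+/+ libraries was 0.408 for the members, 0.212 for clone-named genes and 0.179 for all genes past 3 TPM. Within the members it was 0.581 in clusters and 0.291 outside. Foxl2l+/+ replicate 1 was the highest of the 3 libraries for 85 members (66.9%), against 42.4% of clone-named genes and 41.7% of the 13376 genes past 3 TPM. By cluster status this was 46 of 52 clustered and 39 of 75 other members. These are counts with no test, and a single high foxl2l+/+ library helps a gene past both limits.

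The median ratio of foxl2l+/+ replicate 1 to the mean of replicates 2 and 3 was 2.19 for clustered members, 1.15 for the others and 1.04 for all genes past 3 TPM. The oocyte differentiation markers went the same way, with a sum of 3642 TPM in replicate 1 against 2532 and 2638 TPM in replicates 2 and 3. So did the sum of the blood and immune markers, with 234 TPM against 132 and 139 TPM (12 of 13 found, 123 to 174 TPM in foxl2l-/- libraries). Of 11 blood and immune markers tested between genotypes, 3 were lower and 2 higher in foxl2l-/- cells. The other lists were not highest in replicate 1. Germ cell markers summed to 4318, 4429 and 5000.1 TPM in foxl2l+/+ replicates 1 to 3, and somatic gonad markers to 41.0, 42.3 and 39.8 TPM. Markers of muscle, skin, gut, liver and pigment (18 of 18 found) summed to 147, 175 and 153 TPM. Of 17 of them tested, 1 was lower and 4 were higher in foxl2l-/- cells. Over all 23576 genes tested, 3733 were called lower and 3710 higher. The part of any of these lists in the members' spread was not tested.

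**Figure D4:**
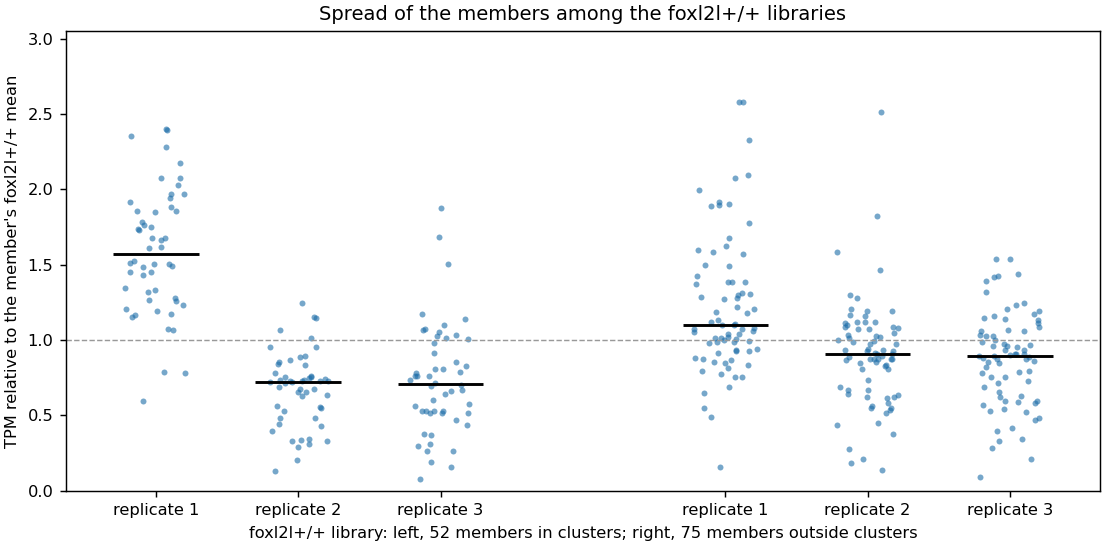
TPM of each member in foxl2l+/+ replicates 1 to 3 relative to the member's own foxl2l+/+ mean (dashed line at 1), for the 52 members in clusters (left) and the 75 others (right); black bars are medians. Most clustered members stand above their mean in replicate 1 and below it in replicates 2 and 3, and the other members scatter closer to their mean.

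Single members marked the ends of that range. The largest spreads belonged to zgc:173837 (11.7, 0.61 and 1.27 TPM in foxl2l+/+, 0.271, 0 and 0.0815 TPM in foxl2l-/-), si:ch211-5k11.8 (118, 9.76 and 9.52 against 4.49, 2.78 and 4.69 TPM), zgc:158463 and zgc:158494. For zgc:158463 on chromosome 5, foxl2l+/+ replicate 2 decided the value, since the libraries had 22.2, 361 and 47.2 TPM in foxl2l+/+ and 28.6, 59.7 and 15.6 TPM in foxl2l-/-, with groups that overlap. Without replicate 2 the gene kept 99.9% of the foxl2l+/+ level, and its log2 fold change went from -2.35 to -0.21. Without replicate 1, si:ch211-5k11.8 kept 41.4%, and zgc:173837 was at 0.941 TPM.

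The smallest spreads belonged to si:ch211-139d20.3, zgc:101744, ovch1 and si:dkey-234i14.9. The first, on chromosome 17, had 29.3, 28.6 and 28.8 TPM in foxl2l+/+ and 3.48, 2.61 and 2.62 TPM in foxl2l-/- libraries, and si:dkey-234i14.9 on chromosome 25 had 8.1, 8.75 and 7.6 against 0.41, 0.527 and 0.165 TPM. Their foxl2l+/+ libraries were nearly level and their groups far apart. None of these 4 lies in a cluster. The span of si:dkey-234i14.9 overlaps 7 genes, of which CU207301.2 and CU207301.1 on the other strand were above it in foxl2l+/+ cells. CU207301.2 had 27.3 TPM in foxl2l+/+ and 0.146 TPM in foxl2l-/- cells, and CU207301.1 had 12.6 and 8.94 TPM. How far reads were shared with these genes was not tested.

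Both limits were met without any 1 of the 6 libraries by 98 of the 127 members. The other 29 missed a limit when some library was left out, 18 of them without foxl2l+/+ replicate 1, of which 9 missed the level and the other 9 the ratio alone. For each other library the number was 3 to 7. Groups overlapped in 5 members, which are zgc:158463, zgc:175135_1, si:ch211-263m18.4, zgc:171750 and si:ch73-380l3.3, the last at 5.72, 3.1 and 0.267 TPM in foxl2l+/+ and 0.312, 0.554 and 0 TPM in foxl2l-/- libraries.

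The members were short genes in genomic span. The median span from start to end was 3072 bases for members, 8380 for clone-named genes and 13884 for all genes past 3 TPM. Spans under 3 kb were found in 62 members (48.8%) and in 16.9% of clone-named genes past 3 TPM. The span of 42 members overlapped another gene of the table, in 27 cases on the other strand. These are overlaps of spans and not of exons, and the libraries do not record strand, so how far reads of a member and its partner were shared was not tested. For hwa, the overlapping rpl37_2 on the other strand was at 712 TPM in foxl2l+/+ and 708 TPM in foxl2l-/- cells, far above the member in both.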

How the data were processed

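RNA of sorted germ cells was amplified with SMART-Seq HT and made into libraries with Nextera XT, which does not record strand, per the labels' protocols. The authors deposited 1 table with read counts and TPM per gene in GRCz11 coordinates. GRCz11 and bcl2fastq are named in the submitters' processing notes. Aligner, counter, annotation release and the treatment of reads that match several places were not given in the sources used here. Levels of similar copies are therefore uncertain. TPM, as the authors deposited it, set the members, levels and shares kept. The deposited counts, with 25176401 to 39189535 per library, entered edgeR 4.0.16 in R 4.3.3 (limma 3.58.1) with TMM factors, the low-count filter filterByExpr and a quasi-likelihood test over 23576 genes, Benjamini-Hochberg adjusted at 0.05. The script was tested on simulated counts. DESeq2 1.42.0 was an alternative. The 12 RPKM and CPM columns were not used.

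No 2 libraries of the same genotype agreed within sampling noise. Symbols from the reference name table matched 28988 gene IDs (91.3%). Clusters used the deposited coordinates. The members and all lists were chosen with earlier results of these data known. Members named are the 12 highest in foxl2l+/+ cells, the 10 of lowest fold change among those of at least 10 TPM, those in clusters of 3 or more and in neighbouring pairs, the 15 highest with a descriptive symbol, the 4 of largest and of smallest spread, and those next to the limits. The other 7 symbols, si:dkey-126g1.9, zgc:173556, the wider chromosome 21 pair and genes named as neighbours were chosen after their values were seen. Intervals cover counting error only. Promoter and protein sequences were not analysed here.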

Additional observations from a re-analysis of the deposited data

How the results depend on the processing

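With other limits the rule gave 86 genes (12.5% as the ratio), 289 (50%), 93 (minimum 10 TPM), 170 (minimum 1 TPM), 158 (CPM in place of TPM, 118 shared with the 127), 134 (median of replicates), 132 (chromosome 4 kept) and 105 (renamed genes left out). Leaving out a library gave 114 to 143. Clustered members numbered 47 with gaps of 50 kb, 56 with 500 kb, 42 as direct neighbours, 43 to 56 without a library, and 32 with members that overlap another gene left out. The last 2 alternatives were chosen after seeing the data. The number of 32, in 6 clusters in place of 11, came with 42 members removed.

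The fit across all genes called 7443 genes, 7443 with RLE factors, 7605 with library totals, 7414 with no low-count filter, 8537 with DESeq2 and 5397 to 7055 without a library. Library totals moved the median of all genes from 0.05 to 0.25 and the split from 3710 higher and 3733 lower to 4882 higher and 2723 lower. Members called lower numbered 124 to 127 under other settings and 120 to 126 without a library, with median log2 fold changes of -3.91 to -3.32 in the latter. Of 75 named genes, 69 kept their direction and side of the threshold in every setting that gave a value, and none reversed. All of the 75 but foxl2l are members, chosen on the same contrast in these libraries. Their kept direction and calls were thus favoured by the choice and are no support. The same holds for the numbers of members called lower. A call was lost in at least 1 setting for zgc:194189, si:dkeyp-98a7.4, zgc:171750, zgc:173837, zgc:158463 and si:ch73-380l3.3.

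With the replicate number as a block, 7199 genes and 125 members were called, with a member median of -3.61. Deviations of same-numbered libraries correlated at -0.0218, 0.0807 and 0.0508, so the numbers were not taken to pair the libraries.

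Members at a few TPM rest on few reads, and si:dkeyp-20e4.8 was too low to be fitted.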

Other observations

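Genes listed under an accession in place of a clone name were not eligible as members, and some lay inside the clusters or overlapped a member. They are named here after their values were seen, and no test was made. On chromosome 22, BX950205.4 had 2.54, 1.27 and 0.412 TPM in foxl2l+/+ replicates 1 to 3 and was at 0 in all foxl2l-/- libraries. On chromosome 21, CT027623.1, which overlaps si:dkey-65l23.2_3, had 183, 78.1 and 22.8 against 10.2, 44.1 and 3.83 TPM in foxl2l+/+ against foxl2l-/- replicates 1 to 3, so its groups overlapped and its libraries differed widely within each genotype. Also on chromosome 21, CR792441.1, which overlaps si:dkey-229d11.5, had 27.1, 4.2 and 6.67 against 0.824, 0.80 and 1.93 TPM; its groups were apart, and foxl2l+/+ replicate 1 stood far above the other foxl2l+/+ libraries. Not all neighbours were lower: si:ch211-226h8.15, between members of the chromosome 22 stretch, had 2.07 TPM in foxl2l+/+ and 3.3 TPM in foxl2l-/- cells.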
